A study of Mus musculus with 6 samples.

Results

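The 32 genes described here encode enzymes that build cholesterol and fatty acids: 20 of the mevalonate, squalene and sterol steps and 12 of fatty acid synthesis, elongation and desaturation. They were chosen by gene symbol and pathway membership, and all 32 were among the 24452 gene symbols of each library. The libraries were RNA-seq of small intestine from C57BL/6 mice at postnatal day 14, an age at which pups still take milk. There were 3 libraries labelled Erk1/2 -/- (knockout, numbered 1 to 3) and 3 labelled wild type (1 to 3). No Cre driver, allele design or pooling of animals is given in the sources used here, and the labels do not say whether each library came from its own animal, so p-values cover the spread between the libraries. The series title asks what the Erk1/2 kinases of the growth factor pathway do through negative feedback in the intestine after birth. Values are taken as normalised counts, that is, read counts scaled per library and rounded.

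Cholesterol is assembled in the cytosol and endoplasmic reticulum from acetyl-CoA, which passes through HMG-CoA and mevalonate to isoprenoid units, then to squalene, and through a row of sterol intermediates to the end product. Fatty acids are built from the same acetyl-CoA by acetyl-CoA carboxylase and fatty acid synthase, and are then lengthened and desaturated. The SREBP transcription factors, which INSIG proteins hold back in the endoplasmic reticulum membrane while sterol is plentiful, activate many of these genes, often together with the factors NF-Y and Sp1. SREBP-2 is known mainly for sterol genes and SREBP-1 for fatty acid genes. The intestine both absorbs cholesterol and makes its own.

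The promoters show what these genes share in sequence. RefSeq entries on GRCm38.p6 were matched by symbol for 26 of the 32 members, and Fdps, Fdft1, Sqle, Scd1, Scd2 and Fads1 had no entry. The 250 bases before each start were searched on both strands for the core of a sterol regulatory element (TCACNCCA), the NF-Y box (CCAAT), the Sp1 box (GGGCGG) and an E-box (CACGTG). None of the members' TCACNCCA matches overlapped a CCAAT. The NF-Y box was found before 16 of 17 sterol enzyme genes (94.1%) and 5 of 9 fatty acid enzyme genes (55.6%), against 37.5% of the 27025 genes of the table and 39.8% of the 11134 genes tested below. GGGCGG was found before 88.2% of the sterol and 55.6% of the fatty acid genes, against 61.5% of the tested genes and 35.4% of the table. TCACNCCA was found before 2 members, Hmgcs1 and Msmo1, or 7.69%, against 4.2% of the table and 4% of the tested genes. CACGTG was found before 4 members, or 15.4%, against 6.86%. Both windows with TCACNCCA also held CCAAT, with 34 bases between the nearest pair before Hmgcs1 and 9 before Msmo1. A match is only a run of letters in the window and shows no binding.

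The windows below were picked because they hold no annotated exon base and span the range of results. Hmgcs1, Mvd and Ebp rose in the libraries labelled knockout, while Lbr, Fasn and Acly did not pass the test. For Msmo1, whose window overlaps an annotated exon, the 30 bases around the site are shown. Capitals mark TCACNCCA and CCAAT on either strand.
Hmgcs1, chr13:119690101-119690350, plus strand: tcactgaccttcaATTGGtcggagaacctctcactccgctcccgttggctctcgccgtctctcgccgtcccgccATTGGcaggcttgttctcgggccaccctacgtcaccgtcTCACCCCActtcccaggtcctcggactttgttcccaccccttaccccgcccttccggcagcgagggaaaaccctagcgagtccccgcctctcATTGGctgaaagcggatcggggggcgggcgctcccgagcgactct
Mvd, chr8:122443423-122443672, minus strand: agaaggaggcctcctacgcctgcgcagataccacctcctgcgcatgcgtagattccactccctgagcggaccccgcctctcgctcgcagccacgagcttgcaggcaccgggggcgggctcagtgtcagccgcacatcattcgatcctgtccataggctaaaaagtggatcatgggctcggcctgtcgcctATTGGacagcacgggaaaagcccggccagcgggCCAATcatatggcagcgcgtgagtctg
Ebp, chrX:8193513-8193762, minus strand: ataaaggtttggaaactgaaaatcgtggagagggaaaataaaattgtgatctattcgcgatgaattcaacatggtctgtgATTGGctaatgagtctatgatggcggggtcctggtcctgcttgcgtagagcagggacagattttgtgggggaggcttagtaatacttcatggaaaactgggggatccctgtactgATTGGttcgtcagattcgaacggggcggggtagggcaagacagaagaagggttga
Lbr, chr1:181842402-181842651, minus strand: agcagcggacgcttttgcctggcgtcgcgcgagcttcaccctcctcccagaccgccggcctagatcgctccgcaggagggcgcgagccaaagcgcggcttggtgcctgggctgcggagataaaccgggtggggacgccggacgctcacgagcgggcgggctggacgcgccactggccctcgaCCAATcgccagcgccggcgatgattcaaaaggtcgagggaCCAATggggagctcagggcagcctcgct
Fasn, chr11:120824548-120824797, minus strand: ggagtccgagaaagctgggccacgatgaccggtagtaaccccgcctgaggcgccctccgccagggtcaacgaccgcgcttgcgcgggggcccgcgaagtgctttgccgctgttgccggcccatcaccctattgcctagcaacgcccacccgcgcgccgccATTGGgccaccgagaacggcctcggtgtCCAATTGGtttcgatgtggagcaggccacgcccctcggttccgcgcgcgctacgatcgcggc
Acly, chr11:100528001-100528250, minus strand: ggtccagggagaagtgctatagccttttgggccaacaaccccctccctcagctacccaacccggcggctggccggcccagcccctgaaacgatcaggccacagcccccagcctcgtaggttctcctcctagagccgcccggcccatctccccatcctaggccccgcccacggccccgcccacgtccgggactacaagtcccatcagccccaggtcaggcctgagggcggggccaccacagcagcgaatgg
Msmo1 site, chr8:64733732-64733761, minus strand: ctattcTCACTCCAtccgcgcagCCAATga

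Before the members are compared, 3 features of the libraries bear on the labels and on the spread. First, the targeted gene Mapk3 was not called lower under the knockout label. This gene, which encodes ERK1, had 3363, 2280 and 2734 normalised counts in labelled knockout 1 to 3, against 3142, 2788 and 2004 in wild type 1 to 3 (limma adjusted p = 0.819). Its groups overlapped. These are totals over whole genes and hold no values for single exons, so every direction below is that of the libraries labelled knockout. Second, labelled knockout 1 and wild type 3 stood apart in a score built from markers of position along the gut. A segment score, the mean log2 level of 8 proximal markers minus that of 7 ileal markers, was 2.56, 7.70 and 8.03 in labelled knockout 1 to 3 and 6.92, 6.42 and 3.40 in wild type 1 to 3. Its markers did not all go the same way. The ileal marker Guca2a was at 12527 in labelled knockout 1 and 6206 in wild type 3, against 288 to 467 elsewhere. Fgf15 was at 390 and 1975 there, against 0 to 13, and Slc51a at 7367 and 5310, against 2194 to 2713. The proximal marker Cybrd1 was at 224 and 402, against 3087 to 9894. Slc51b, Gata4 and Slc40a1 also set both libraries apart. Fabp6, at 1947 and 4, did so only for labelled knockout 1. Ada, at 5997 and 273, and Nr0b2, at 298 and 290, did not set both apart. The proximal markers Apoa4 and Fabp1 were highest in labelled knockout 1. Lct, also in the score, was itself called lower under the knockout label. In addition, Ddx3y, on the Y chromosome, was detected in labelled knockout 1 and in wild type 1 and 2 and was at 0 in the other 3 libraries, so neither group came from 1 animal alone. Totals of normalised counts were 14798485 to 17131326 in labelled knockout and 13622292 to 14074530 in wild type libraries.

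Of the 20 sterol pathway genes, 14 were higher in the libraries labelled knockout at a limma adjusted p under 0.05 and none was lower, and 10 of the 14 rose by at least 2-fold. Among the 12 fatty acid enzymes only the desaturase gene Scd2 rose and none fell. Together 15 of 32 members were called higher, where 4.86% of the 14663 genes tested were called higher and 3.94% lower. The median log2 fold change was 1.08 over the sterol genes and 0.45 over the fatty acid genes, against -0.01 over all genes tested. All 32 members passed the filter on low values. The summed normalised count of the sterol genes was 14371, 13928 and 12195 in labelled knockout 1 to 3 and 6337, 5957 and 5846 in wild type 1 to 3. For the fatty acid genes the sums were 10928, 15233 and 12329 in labelled knockout and 10771, 9194 and 7486 in wild type, so the lowest sum under the knockout label lay close to the highest wild type sum. In 22 of the 32 members every library labelled knockout lay above every wild type library, as did 19.8% of all genes tested. In no member was the order the other way round, as it was in 17.9% of all genes.

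Scaling by library totals put the all-gene median at -0.18 (log2 fold change) and the higher share of all calls at 29.6%. That share was 55.2% with the authors' scaling and 41.0% with upper-quartile scaling. The members called higher numbered 13 with library totals, where Nsdhl and Ebp were lost and 2.82% of all genes were called higher, and 15 with upper quartiles, where 3.68% were. The count was also 15 with trimmed-mean scaling, pseudocounts of 0.5 and 5 and a filter at a mean of 50, against 4.41%, 4.77%, 4.95% and 5.56% of all genes. It was 14, without Ebp, with no filter (2.77% of all genes) and without an intensity trend (3.80%), and 22 at an adjusted p under 0.10 (10.3%).

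**Figure D1:**
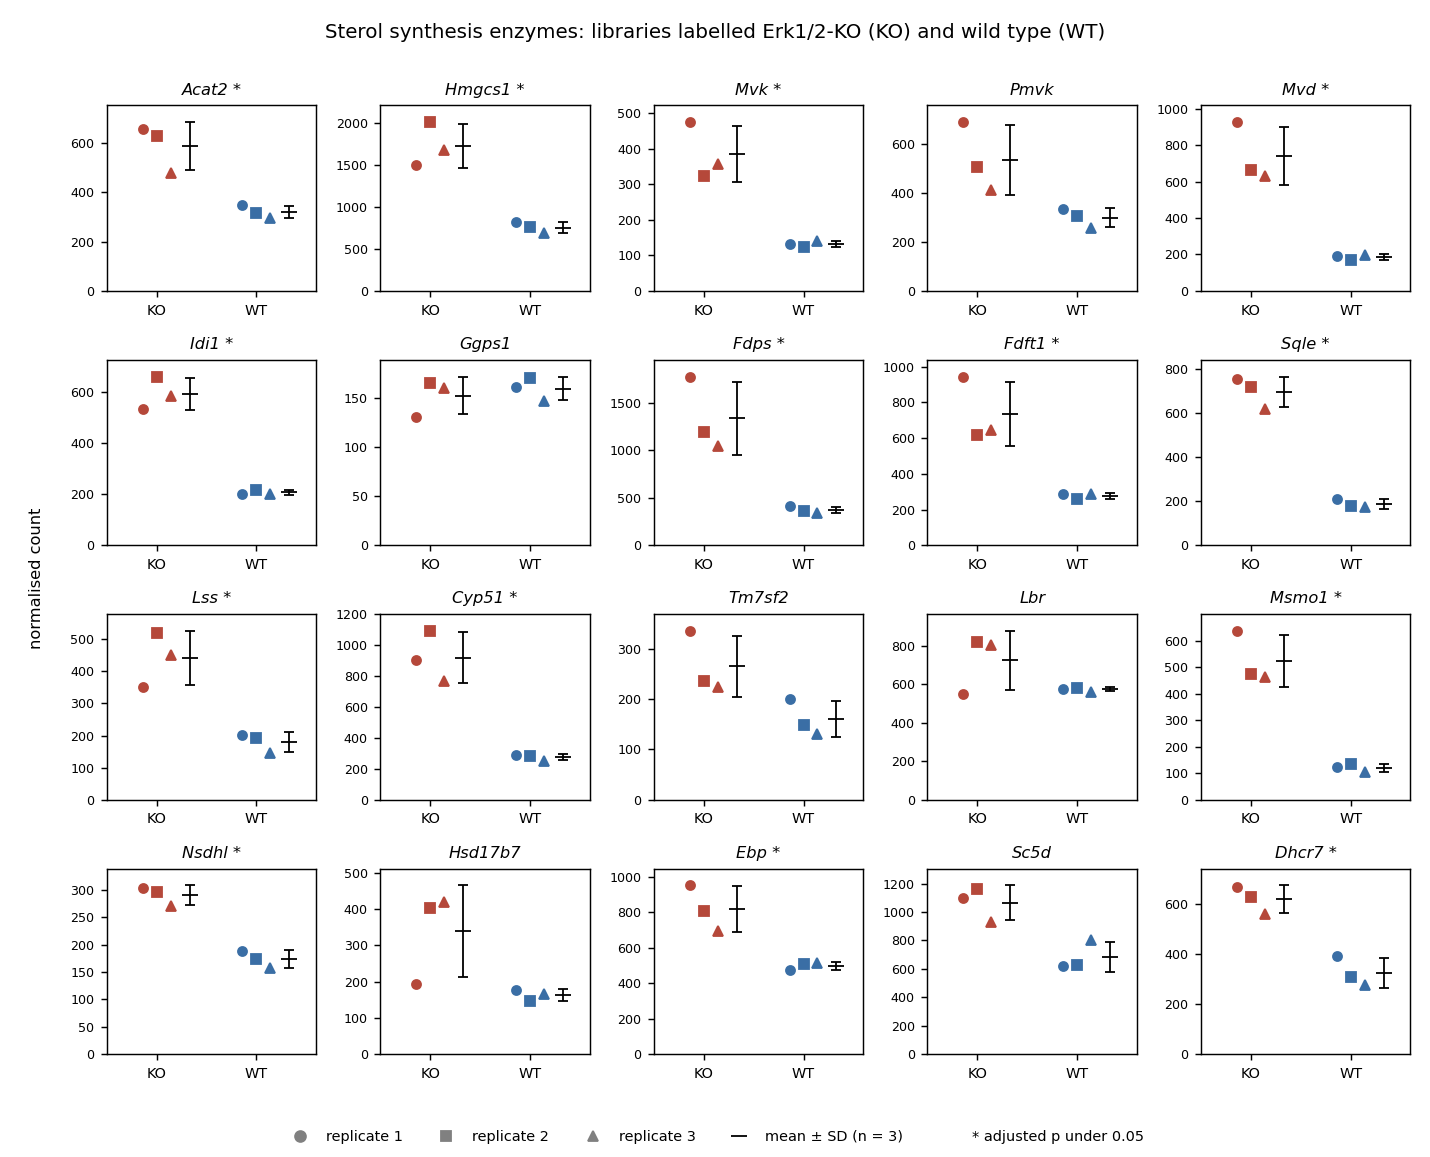
Normalised counts (vertical axes, from 0) of the 20 sterol synthesis enzyme genes in the 3 libraries labelled Erk1/2-KO (red, left) and the 3 labelled wild type (blue, right), with the mean and SD of each group in black and a star for an adjusted p under 0.05. In 18 of the 20 genes all red points lie above all blue points, the exceptions being Ggps1 and Lbr.

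Both genes of the steps before mevalonate among the members, Acat2 and Hmgcs1, rose. Acat2, whose thiolase joins 2 acetyl-CoA molecules, had 654, 629 and 476 normalised counts in labelled knockout 1 to 3, against 348, 314 and 297 in wild type 1 to 3. Hmgcs1, the cytosolic HMG-CoA synthase, had 1497, 2011 and 1685 in labelled knockout and 819, 757 and 689 in wild type. Both genes had the groups apart, with log2 fold changes of 0.86 ± 0.17 and 1.19 ± 0.16 (SE) and limma adjusted p-values of 0.0317 and 0.0140. Of the Acat2 transcript sequence, 39.1% of 50-base words also occur in its neighbour copy Acat3, which had 3 to 7 normalised counts in every library, so its count is uncertain where reads could be split.

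Of the mevalonate kinases and the decarboxylase, Mvk and Mvd rose and Pmvk did not pass. Mvk, which adds the first phosphate to mevalonate, had 474, 323 and 358 in labelled knockout 1 to 3 and 132, 123 and 139 in wild type 1 to 3. Its log2 fold change was 1.53 ± 0.18 (adjusted p = 0.0121). Pmvk, which adds the next phosphate, had 687, 504 and 410 in labelled knockout and 332, 306 and 258 in wild type. All its libraries labelled knockout lay above wild type, but it did not pass at 0.81 ± 0.22 (adjusted p = 0.0632). Mvd, the decarboxylase that yields the isoprenoid unit, had 925, 665 and 632 in labelled knockout and 189, 170 and 199 in wild type. The lowest of these knockout values was more than 3 times the highest wild type value, and the log2 fold change was 1.97 ± 0.18 (adjusted p = 0.00731).

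Of the isoprenoid chain enzymes, Idi1 and Fdps rose and Ggps1 did not pass. Idi1, the isomerase that readies the unit for chain building, had 535, 661 and 585 in labelled knockout 1 to 3 and 202, 218 and 202 in wild type 1 to 3 (log2 fold change 1.51 ± 0.14, adjusted p = 0.00731). Fdps, which makes the farnesyl diphosphate that leads to sterols, had 1776, 1195 and 1041 in labelled knockout and 413, 359 and 345 in wild type (1.81 ± 0.22, adjusted p = 0.0121). Both rose with no overlap, and labelled knockout 1 was the highest library for Fdps and the lowest knockout library for Idi1. Ggps1, which draws farnesyl diphosphate off towards geranylgeranyl groups for proteins, had 131, 166 and 161 in labelled knockout and 162, 171 and 147 in wild type. Its groups overlapped, with a log2 fold change of -0.07 ± 0.16 (adjusted p = 0.791), and the sign was positive without labelled knockout 1 at 0.03. Fdps shares 26.2% of its 50-base words with other annotated genes, most of them with Gm43738, a gene model that overlaps it on the same strand, and Idi1 shares 17.7%.

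The steps from farnesyl diphosphate to lanosterol rose throughout. Fdft1, squalene synthase, had 944, 618 and 646 in labelled knockout 1 to 3 and 285, 257 and 289 in wild type 1 to 3. Sqle, squalene epoxidase and a known rate-limiting enzyme of the later pathway, had 753, 716 and 620 in labelled knockout and 211, 179 and 172 in wild type. Lss, which folds epoxidised squalene into lanosterol, had 352, 520 and 452 in labelled knockout and 202, 193 and 144 in wild type. Each gene had its groups apart, with log2 fold changes of 1.38 ± 0.19 for Fdft1, 1.89 ± 0.15 for Sqle and 1.29 ± 0.21 for Lss (adjusted p of 0.0164, 0.00528 and 0.0210). Fdft1 overlaps exons of the abundant cathepsin gene Ctsb on the other strand. Ctsb did not pass, at -0.39 ± 0.30 (adjusted p = 0.414), and its values of 12862 to 26050 in labelled knockout and 18806 to 28125 in wild type overlapped. No strand setting is given in the sources used here, so reads of the pair could not be told apart where they overlap.

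Demethylation of lanosterol held the largest rise of the set. Msmo1, the sterol methyl oxidase, had 636, 474 and 461 in labelled knockout 1 to 3 and 125, 133 and 104 in wild type 1 to 3. Its log2 fold change of 2.10 ± 0.19, a 4.29-fold rise, was the largest among the 32 members (adjusted p = 0.00641). Cyp51, the P450 that removes a methyl group from lanosterol, had 901, 1091 and 765 in labelled knockout and 288, 285 and 253 in wild type (1.72 ± 0.17, adjusted p = 0.00739). Both were far apart between the labels. Cyp51 overlaps exons of Akap9 on the other strand, and Akap9 did not pass, at -0.28 ± 0.26 (adjusted p = 0.508). Nsdhl, which acts with Msmo1 and lies on the X chromosome, had 304, 297 and 270 in labelled knockout and 189, 174 and 157 in wild type (0.74 ± 0.15, adjusted p = 0.0317). Hsd17b7, the ketoreductase of the same demethylation complex, had 194, 403 and 421 in labelled knockout and 178, 147 and 165 in wild type. Labelled knockout 1 was only just above wild type 1, and the gene did not pass at 0.97 ± 0.31 (adjusted p = 0.0895).

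Among the sterol reductases and late steps, Ebp and Dhcr7 rose, while Tm7sf2, Lbr and Sc5d did not pass. Tm7sf2 and Lbr encode interchangeable sterol reductases that follow Cyp51, and Lbr is also a receptor for lamin in the nuclear envelope. Tm7sf2 had 336, 237 and 224 in labelled knockout 1 to 3 and 201, 149 and 131 in wild type 1 to 3, and did not pass at 0.72 ± 0.23 (adjusted p = 0.0938). Of its 50-base words, 9.87% occur in Vps51, which overlaps it on the same strand and had 787 to 1185 normalised counts. Lbr had 549, 821 and 805 in labelled knockout and 578, 583 and 563 in wild type, with labelled knockout 1 below all wild type libraries (0.31 ± 0.18, adjusted p = 0.294). Without labelled knockout 1, Lbr passed at 0.50 (adjusted p = 0.0213). Ebp, the X-linked sterol isomerase, had 950, 804 and 691 in labelled knockout and 471, 505 and 513 in wild type (0.70 ± 0.16, adjusted p = 0.0420). It had the highest adjusted p of the 15 called members, and its call held in 9 of the 19 alternatives run. Sc5d, a desaturase, had 1102, 1165 and 932 in labelled knockout and 618, 627 and 802 in wild type, and did not pass at 0.65 ± 0.16 (adjusted p = 0.0562). Dhcr7, a reductase of the late steps, had 671, 628 and 560 in labelled knockout and 394, 307 and 277 in wild type and rose by 0.94 ± 0.17 on the log2 scale (adjusted p = 0.0278).

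The other genes of sterol synthesis and its control were taken from a list beside the members. Of 16 genes tested, 5 were called higher and none lower, with a median log2 fold change of 0.39. Over all genes tested, 4.86% were called higher and 3.94% lower. Among them Srebf2, which encodes SREBP-2, had 2429, 3213 and 3048 in labelled knockout 1 to 3 and 1655, 1492 and 1495 in wild type 1 to 3. Its groups were apart, and it rose by 0.90 ± 0.15 (adjusted p = 0.0237). Tmem97, a sterol-regulated membrane protein, rose by 1.00 ± 0.18 (adjusted p = 0.0263). Srebf1, which encodes SREBP-1, had 7523, 6603 and 9480 in labelled knockout and 7923, 7282 and 2888 in wild type and did not pass (0.50 ± 0.39, adjusted p = 0.420). Insig1, which encodes one of the INSIG proteins, had 2277, 3532 and 3475 in labelled knockout and 2017, 1583 and 876 in wild type. Its groups were apart but it did not pass, at 1.11 ± 0.33 (adjusted p = 0.0801). Among 11 genes that use isoprenoids, 2 rose and none fell, both of them subunits of the enzyme that makes the tail of ubiquinone: Pdss1 (1.17 ± 0.24, adjusted p = 0.0348) and Pdss2 (0.68 ± 0.15, adjusted p = 0.0436).

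**Figure D2:**
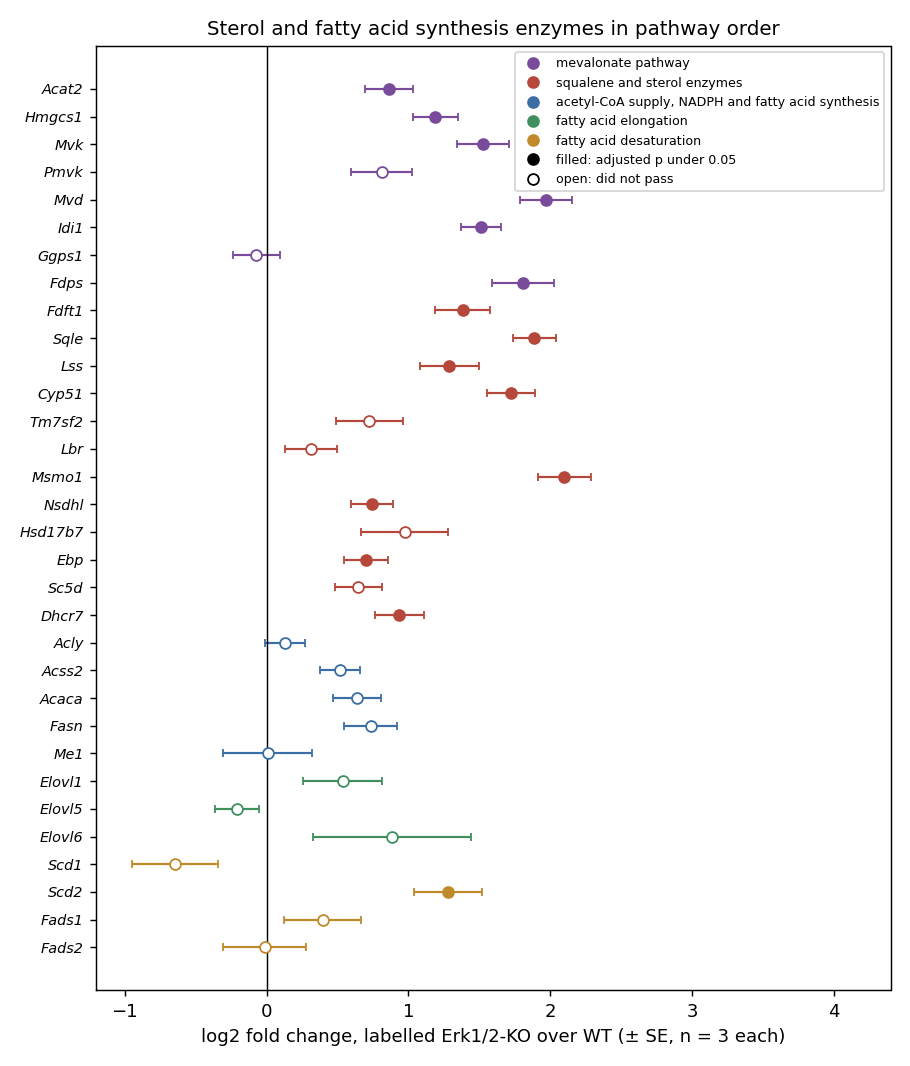
Log2 fold change of the libraries labelled Erk1/2-KO over those labelled wild type (horizontal axis, limma, with SE as bars, n = 3 each) for the 32 members in pathway order from top to bottom, coloured by step and filled where the adjusted p was under 0.05. The filled points are 6 of 8 mevalonate, 8 of 12 squalene and sterol, and 1 of 12 fatty acid genes (Scd2).

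None of the 5 members that supply acetyl-CoA or NADPH or make palmitate passed. Acly, which splits citrate into acetyl-CoA, had 1290, 1671 and 1455 in labelled knockout 1 to 3 and 1357, 1336 and 1321 in wild type 1 to 3. Its groups overlapped, at a log2 fold change of 0.13 ± 0.14 (adjusted p = 0.564), and the sign turned to -0.04 with library-total scaling. Acss2, which makes acetyl-CoA from acetate, had 370, 456 and 382 in labelled knockout and 291, 273 and 277 in wild type (0.52 ± 0.14, adjusted p = 0.0669). Acaca, acetyl-CoA carboxylase, had 437, 538 and 411 in labelled knockout and 344, 269 and 277 in wild type (0.64 ± 0.17, adjusted p = 0.0638). Fasn, fatty acid synthase, had 1605, 2261 and 1931 in labelled knockout and 1386, 1072 and 1027 in wild type (0.73 ± 0.19, adjusted p = 0.0571). In these last 3 genes every library labelled knockout lay above every wild type library. Me1, the malic enzyme that supplies NADPH, had 944, 1392 and 873 in labelled knockout and 1565, 1011 and 714 in wild type. The Me1 groups overlapped fully at 0.01 ± 0.31 (adjusted p = 0.990), and its sign was negative under library-total, upper-quartile and trimmed-mean scaling. Acaca shares 30.4% of its 50-base words with other annotated genes, mostly Gm5182, and Me1 shares 22.9%, mostly with Gm7049.

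None of the 3 elongase members passed. Elovl6, which lengthens palmitate, had 1062, 3890 and 3096 in labelled knockout 1 to 3 and 1851, 1573 and 698 in wild type 1 to 3, with labelled knockout 1 below wild type 1 and 2. Elovl1, which makes very long saturated chains, had 2396, 1293 and 1279 in labelled knockout and 989, 979 and 1341 in wild type, with wild type 3 above 2 libraries labelled knockout. Elovl5, which lengthens polyunsaturated chains, had 279, 315 and 255 in labelled knockout and 293, 328 and 363 in wild type. Their log2 fold changes were 0.88 ± 0.56, 0.54 ± 0.28 and -0.21 ± 0.16 (adjusted p of 0.323, 0.237 and 0.388). Elovl1 overlaps exons of the mitosis gene Cdc20 on the other strand, and Cdc20 rose by 0.67 ± 0.13 (adjusted p = 0.0322).

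The stearoyl-CoA desaturases, which make monounsaturated fatty acids, gave values of opposite sign. Scd2 had 1041, 1157 and 716 in labelled knockout 1 to 3 and 479, 405 and 309 in wild type 1 to 3, and rose by 1.28 ± 0.24 on the log2 scale (adjusted p = 0.0288). Scd1 had 24, 49 and 27 in labelled knockout and 48, 47 and 56 in wild type, and did not pass at -0.65 ± 0.31 (adjusted p = 0.204). Per kilobase of exon, Scd2 exceeded Scd1 by 38.8, 21.1 and 23.7 times in labelled knockout 1 to 3 and by 8.93, 7.71 and 4.94 times in wild type 1 to 3, with no overlap between the labels. The pair shares few 50-base words, 4.56% of Scd1 and 3.97% of Scd2 occurring in any other gene. Fads1 and Fads2, the desaturases of polyunsaturated fatty acids, lie side by side on chromosome 19 on opposite strands. Fads1 had 663, 942 and 848 in labelled knockout and 807, 692 and 417 in wild type. Fads2 had 817, 1269 and 1056 in labelled knockout and 1361, 1209 and 686 in wild type. Neither passed, at 0.39 ± 0.27 and -0.01 ± 0.29 (adjusted p of 0.359 and 0.978), and wild type 3 was the lowest library for both.

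**Figure D3:**
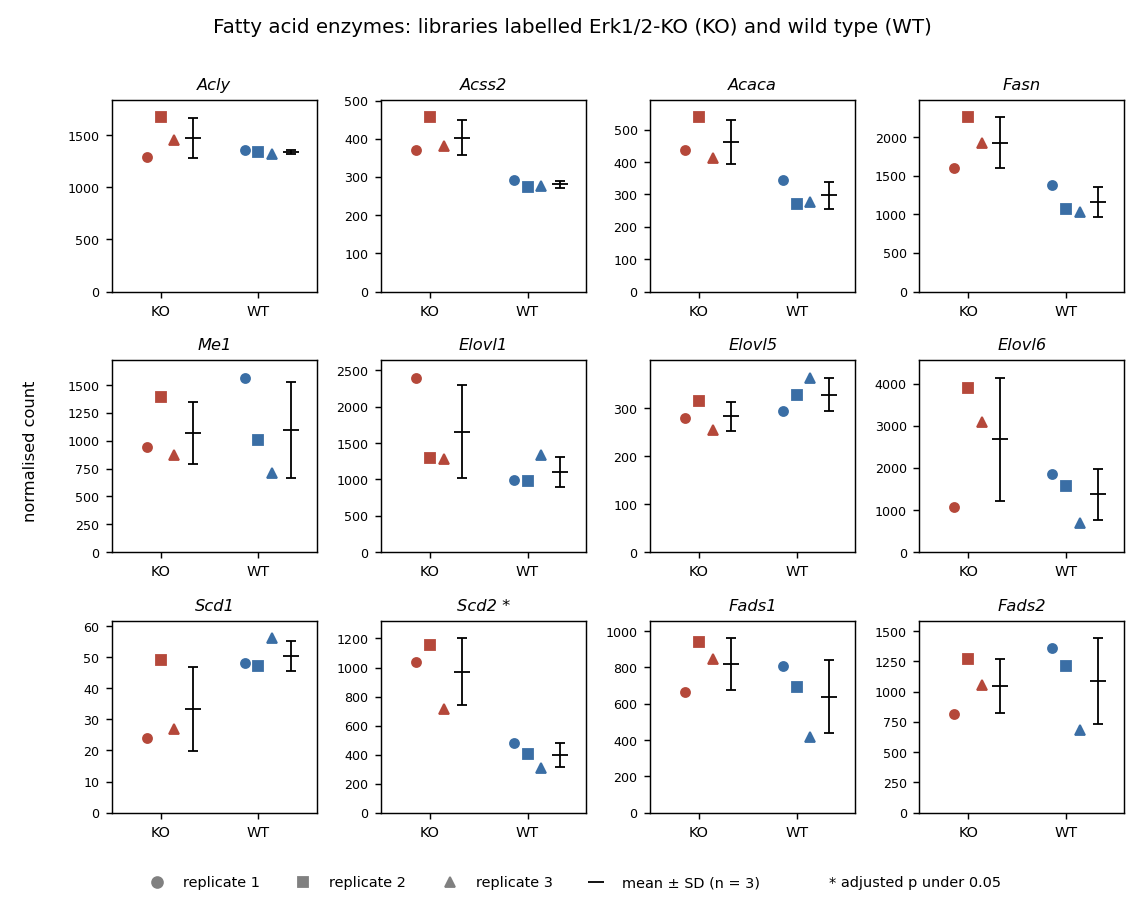
Normalised counts (vertical axes, from 0) of the 12 fatty acid enzyme genes in the 3 libraries labelled Erk1/2-KO (red, left) and the 3 labelled wild type (blue, right), with the mean and SD of each group in black and a star for an adjusted p under 0.05. All red points lie above all blue points in 4 of the 12 genes, which are Acss2, Acaca, Fasn and Scd2.

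Other genes of fatty acid synthesis were again taken from a list. Of 23 genes, 19 passed the filter on low values, and of these 4 rose and 1 fell, with a median log2 fold change of 0.47. The shares over all genes tested were 4.86% higher and 3.94% lower. Slc25a1, which exports citrate from mitochondria for acetyl-CoA, rose by 0.80 ± 0.18 (adjusted p = 0.0442) and Pgd, an NADPH-making enzyme of the pentose phosphate pathway, by 1.33 ± 0.15 (adjusted p = 0.0109). Hsd17b12, a reductase of the elongation cycle, rose by 0.96 ± 0.15 (adjusted p = 0.0200) and Elovl7, an elongase, by 1.19 ± 0.14 (adjusted p = 0.0121). Elovl2, an elongase of polyunsaturated chains, had 14, 7 and 5 normalised counts in labelled knockout 1 to 3 and 60, 70 and 24 in wild type 1 to 3, and fell by 2.41 ± 0.52 on the log2 scale (adjusted p = 0.0393). Elovl3 and Scd3 were at 0 in all libraries, and Elovl4 and Scd4 did not reach the filter.

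Levels between genes were compared as normalised counts per kilobase of all annotated exons. Elovl1 was the highest member in both groups, at 608 ± 235 per kilobase in labelled knockout and 405 ± 75.6 in wild type (SD, n = 3 each). Scd1 was the lowest in both, at 6.81 ± 2.79 in labelled knockout and 10.3 ± 1.01 in wild type. Mvd ranked 3 of 32 in labelled knockout, at 398 ± 86.3, and 14 in wild type, at 100.1 ± 7.92. Fads2 ranked 6 in labelled knockout, at 318 ± 68.6, and 2 in wild type, at 329 ± 107, a difference smaller than either SD. Msmo1 stood at 85.2 ± 15.9 in labelled knockout and 19.6 ± 2.44 in wild type, among the lower members under either label. The coefficient of variation between libraries was larger in labelled knockout than in wild type for 24 of the 32 members, with medians of 18.2% in labelled knockout and 10.2% in wild type. The same count was not made over all genes tested, so it cannot be read as particular to the members.

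Because labelled knockout 1 and wild type 3 had the low segment scores, the members were also compared within each set of libraries. Within each set the labels also differed in the Y-linked gene Ddx3y. It was at 177 in labelled knockout 1 and 0 in wild type 3. In the other set it was at 0 in labelled knockout 2 and 3, against 303 and 428 in wild type 1 and 2. Label and sex therefore cannot be told apart within a set. Over the sterol genes the median log2 difference was 1.32 between labelled knockout 1 and wild type 3, and 1.22 between labelled knockout 2 and 3 and wild type 1 and 2. Of the 20 genes, 18 were higher in labelled knockout 1 than in wild type 3, all but Ggps1 and Lbr. In 19, labelled knockout 2 and 3 both lay above wild type 1 and 2, all but Ggps1. Over all genes tested these orders held for 49.5% and 35% of genes. Over all genes tested the medians of these differences were 0 and 0.01. For the fatty acid genes the medians were 0.51 and 0.32. Among the libraries labelled knockout, 11 of the 12 fatty acid genes were highest in labelled knockout 2, as were 34.3% of all genes tested. Of the 20 sterol genes, 12 were highest in labelled knockout 1, as were 44.5% of all genes. Hsd17b7 differed by 0.23 between labelled knockout 1 and wild type 3 and by 1.34 in the other set, and Pmvk by 1.41 and 0.51. The differences between the sets were not tested, since the low-score set holds 1 library per label.

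The count of calls depended on these libraries. With labelled knockout 1 and wild type 3 both left out, 24 members were called higher, 18 sterol and 6 fatty acid genes, where 14.3% of all genes tested were called higher. In that fit Ddx3y was detected in both wild type libraries and in neither labelled knockout library, so label and sex cannot be told apart. With the segment score as a covariate the count was also 24, again 18 and 6, against 16.9% of all genes. Acss2, Acaca, Fasn, Elovl1 and Elovl6 passed in both of these fits, with log2 fold changes under the covariate of 0.50 ± 0.13, 0.62 ± 0.16, 0.69 ± 0.13, 0.62 ± 0.10 and 0.71 ± 0.14. With the level of Ddx3y as a covariate, 9 members were called, all of them sterol genes, against 1.25% of all genes. The 6 members not called there had log2 fold changes of 0.94 (Acat2), 1.30 (Lss), 0.80 (Nsdhl), 0.75 (Ebp), 1.04 (Dhcr7) and 1.42 (Scd2), none smaller than without the covariate, with adjusted p from 0.0549 to 0.0745. Leaving out labelled knockout 1 gave 22 called members, where 10.6% of all genes were called higher. Dropping labelled knockout 2 gave 10 (2.22% of all genes), and dropping labelled knockout 3 gave 4 (0.179%). The count was 5 when wild type 1 was dropped (0.493%), 5 for wild type 2 (0.361%) and 9 for wild type 3 (1.85%). Mvd, Sqle, Cyp51 and Msmo1 were called in all 6 of these fits and in each of the 19 alternatives run.

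**Figure D4:**
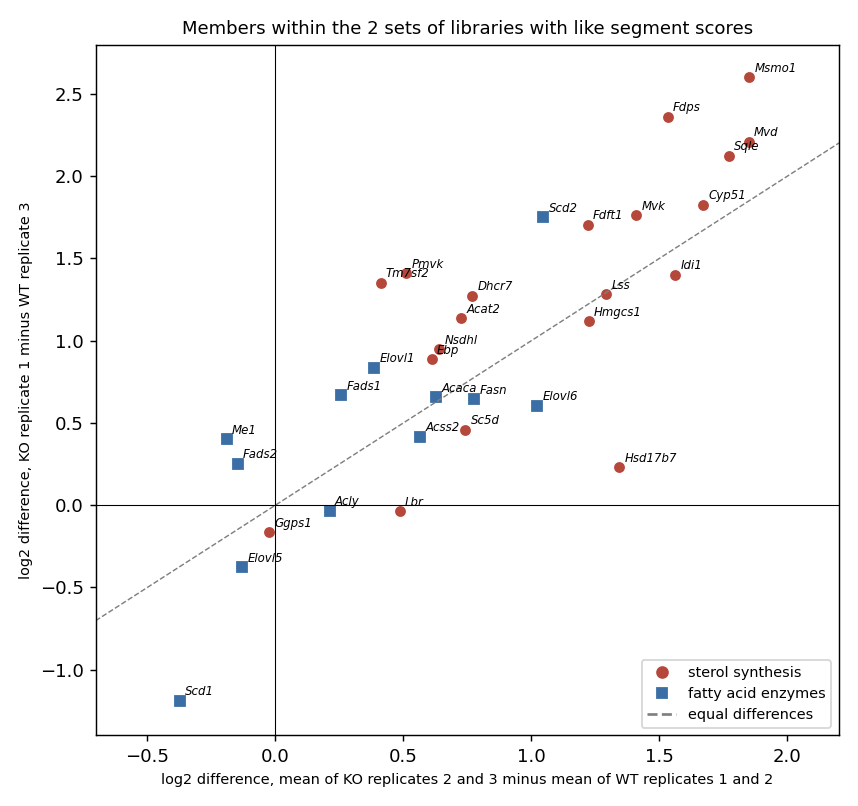
Log2 difference of each member between labelled Erk1/2-KO replicate 1 and wild type replicate 3 (vertical axis), against the difference between the mean of labelled Erk1/2-KO replicates 2 and 3 and the mean of wild type replicates 1 and 2 (horizontal axis). Red circles are the 20 sterol genes, blue squares the 12 fatty acid genes, and the dashed line marks equal differences. Of the 32 members, 25 are positive on both axes. On each axis the labels also differ in the detection of Ddx3y.

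Markers of other cells were measured beside the members, since in whole tissue fewer cells of a type and less RNA per cell cannot be told apart. The fat cell list had 6 of 8 genes above 0, and its defining markers Adipoq and Lep were at 0 in every library. Its sum, 4764 to 6336 in labelled knockout and 4703 to 5091 in wild type, was mostly Cidec and Lipe. The sum of 6 cycling cell markers was 4403 to 6106 in labelled knockout and 3866 to 3977 in wild type, with 2 of 6 called higher, and that of 7 lymphoid markers 284 to 365 in labelled knockout and 831 to 961 in wild type, with 4 of 7 called lower. Over all genes tested, 4.86% were called higher and 3.94% lower. The part of cycling and lymphoid cells in the sterol gene difference was not tested. The sums of the other marker lists overlapped between the labels: 8 enterocyte markers at 1033173 to 1972297 in labelled knockout and 1440798 to 1691393 in wild type, and 6 smooth muscle markers at 27302 to 38680 in labelled knockout and 35050 to 50521 in wild type. Macrophage (3657 to 8666 in labelled knockout, 5000 to 7324 in wild type), neuron and glia (1699 to 3072 in labelled knockout, 1247 to 2290 in wild type), pancreas (270 to 7831 in labelled knockout, 2402 to 38556 in wild type) and hepatocyte markers (157 to 2542 in labelled knockout, 458 to 1024 in wild type) overlapped likewise, while Alb, which defines hepatocytes, was at 6 or less in every library. The enterocyte sum was mostly Apoa4 and Apoa1. Of its other genes, Lct, the lactase of suckling enterocytes, fell by 1.22 ± 0.28 on the log2 scale (adjusted p = 0.0446). Vil1 and Fabp1 lay above wild type in every library labelled knockout but did not pass (0.44 ± 0.15 and 0.89 ± 0.22, adjusted p of 0.115 and 0.0542). Adgre1 of the macrophage list fell by 0.96 ± 0.22 (adjusted p = 0.0462), while the other 5 macrophage markers did not pass.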

How the data were processed

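Per the submitters' processing notes, TopHat2 2.1.0, HTSeq 0.6.0, DESeq2 (no version) and the build mm10 were used, in an order not given in the sources used here. The deposited values, 1 file per library, are a score per gene: whole numbers taken here as normalised counts that the authors rounded. Median-ratio factors computed from the files lay between 1.0054 and 1.0085, and some whole numbers from 1 to 30 occurred in no gene in 3 libraries. Depth in reads is unknown, so no counting intervals were computed. Annotation, strand setting and treatment of multi-mapping reads were not stated. Labels were grouped by genotype, and 27 symbols turned into dates were left out.

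Limma 3.58.1 (R 4.3.3) with an intensity trend was run on log2(normalised count + 1) for the 14663 genes that reached 10 in 3 or more libraries, with genotype as the only term, two-sided tests, Benjamini-Hochberg adjustment over all genes and a threshold of 0.05. Fold changes on this scale understate low genes. The script was tested on simulated data. Coordinates and exon lengths came from GENCODE vM21 on GRCm38, and shared words of 50 bases from its transcripts. All 32 members were named, and other genes were named from the lists where called, with Srebf1, Srebf2, Insig1 and Mapk3 in any case; some genes under this rule are counted in their lists but not reported here. Genes that overlap or share sequence with a member, single marker genes, and Elovl3, Elovl4, Scd3 and Scd4, were named after their values were seen. The members, lists and tests were chosen with earlier results of these data known. Alternatives changed scaling, pseudocount, filter, variance trend, threshold, covariates, replicate block and the libraries used.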

Additional observations from a re-analysis of the deposited data

How the results depend on the processing

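No called member changed sign. Upper-quartile and trimmed-mean scaling, pseudocounts of 0.5 and 5 and a filter at a mean of 50 left the 15 member calls as they were. Scaling by library totals gave 412 genes higher and 980 lower over all genes, against 712 and 578. An adjusted p under 0.10 gave 1517 higher and 1328 lower, with 4 fatty acid members. The segment score as covariate gave 2482 higher and 2204 lower, with 24 members, 6 of them fatty acid genes. The Ddx3y covariate gave 184 higher and 86 lower, with 9 members, 9 sterol and 0 fatty acid genes. Without both labelled knockout 1 and wild type 3 there were 2030 higher and 1726 lower, with 24 members, 6 of them fatty acid genes. In that fit the label and the detection of Ddx3y went together and cannot be told apart. Leaving out 1 library gave 26 to 1544 genes higher, 1 to 1448 lower, 4 to 22 members, 4 to 18 sterol and 0 to 4 fatty acid genes. The fewest members were called without labelled knockout 3 (4) and the most without labelled knockout 1 (22). The cause of these shifts was not tested. The labels do not say whether the replicate numbers pair the libraries. Deviations of same-numbered libraries from their group means correlated at -0.373, 0.302 and -0.161, and those of labelled knockout 1 and wild type 3 at 0.412. With 3 libraries a group and 1 in each standing apart, these values cannot show whether the numbers are pairs. With the replicate block, 55 genes (0.375% of those tested) were higher and 9 lower, with 6 members, 6 sterol and 0 fatty acid genes. With 3 libraries a group and no read depth, small differences could not be resolved.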
